A study of Mus musculus with 4 samples.

Results

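Thrombospondin 1 and the receptors around it were followed as 4 genes, Thbs1, Cd47, Cd36 and Sirpa, taken by symbol from the 31053 mouse genes counted in 4 transplanted mammary tumours. All 4 were found, each as 1 row per library. They were singled out because Thbs1 stood far higher in phagocytes of hosts lacking Il1a, so every value of these genes in phagocytes is given as a description, without a test. The tumours were grown from HER2+ H605 mouse mammary tumour cells placed in the mammary pad of FVB/NJ hosts, 6 to 8 weeks old according to the labels, and were taken at day 14. The hosts of 2 tumours were wild type (WT) and those of the other 2 were IL1α-/-, written Il1a-/- here, which lack the gene for interleukin 1α. The transplanted tumour cells were the same in both groups and were not described as edited, so the deletion is one of the host. The labels describe 2 pairs of tumours taken on different days without saying which samples form a pair, and do not say whether a sample is 1 mouse.

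Thrombospondin 1, made from Thbs1, is a large glycoprotein secreted into the matrix by platelets, fibroblasts, endothelial cells and myeloid cells, where it activates latent TGF-β and restrains the growth of blood vessels. CD47, present on nearly all cells, binds thrombospondin 1 and is also the ligand of SIRPα (Sirpa), an inhibitory receptor of phagocytes whose engagement holds back engulfment, the "don't eat me" signal. CD36 is a scavenger receptor that takes up oxidised lipoproteins and fatty acids and passes on the anti-angiogenic signal of thrombospondin 1 in endothelial cells.

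In the GRCm38 (mm10) genome, Thbs1 (ENSMUSG00000040152) lies on the plus strand of chromosome 2 at chr2:118111876-118127133, and Sirpa (ENSMUSG00000037902) on the plus strand at chr2:129592835-129632228. The deleted gene Il1a lies on the same chromosome, on the minus strand at chr2:129299610-129309972, so that Sirpa is 0.283 Mb and Thbs1 11.2 Mb away from it. Cd47 (ENSMUSG00000055447) lies at chr16:49800533-49915010 on the plus strand, and Cd36 (ENSMUSG00000002944) at chr5:17781690-17888801 on the minus strand. Promoters are shown for Cd47 and Cd36 only, because the promoter set used held no sequence for Thbs1 or Sirpa. Both are RefSeq sequences of the GRCm38.p6 build, 300 bases from 250 before to 50 after the gene's start, written 5′ to 3′ on the gene's strand with every CpG (the letters CG) in capitals. The Cd47 window is chr16:49855404-49855703 on the plus strand and the Cd36 window chr5:17835847-17836146 on the minus strand, and both lie inside the longer gene spans given above.
Cd47 promoter: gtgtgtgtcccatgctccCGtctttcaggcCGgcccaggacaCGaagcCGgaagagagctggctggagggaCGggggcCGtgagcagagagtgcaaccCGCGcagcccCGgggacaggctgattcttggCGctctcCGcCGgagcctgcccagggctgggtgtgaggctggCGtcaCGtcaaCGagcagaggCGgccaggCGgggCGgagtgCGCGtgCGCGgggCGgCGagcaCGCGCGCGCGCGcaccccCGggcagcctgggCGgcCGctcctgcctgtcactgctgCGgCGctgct
Cd36 promoter: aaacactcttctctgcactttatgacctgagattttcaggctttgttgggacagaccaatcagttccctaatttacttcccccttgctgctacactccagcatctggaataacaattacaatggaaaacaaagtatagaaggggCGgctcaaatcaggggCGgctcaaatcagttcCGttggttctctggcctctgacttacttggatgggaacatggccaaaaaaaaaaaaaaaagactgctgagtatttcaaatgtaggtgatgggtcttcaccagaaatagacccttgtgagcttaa
The Cd47 window holds 35 CpG and 74% G and C, with more CpG than 93.3% of the 27025 mouse promoters compared. The Cd36 window holds 3 CpG and 43% G and C, with more CpG than 23.8% of them. The median promoter has 7 CpG and 52.7% G and C. The letters TATAAA, searched on both strands, are in neither window and in 14.2% of all promoters.

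Counts are UMIs, unique molecular identifiers that each stand for 1 captured transcript. The libraries held from 6704859 mouse UMIs (Il1a-/- replicate 1) to 28999819 (WT replicate 2), with 3873 and 3878 called cells for WT hosts and 3130 and 3246 for Il1a-/- hosts. The median cell of the WT samples had 3093 and 4160 UMIs and that of the Il1a-/- samples 1348 and 2883.5, so both knockout libraries were shallower. Pairs of libraries shared 0 to 5 cell barcodes, where 1.5 to 2.21 would be shared by chance. Il1a, the check of the labels, had 61 and 83 UMIs in phagocytes of the WT samples and 1 and 0 in those of the Il1a-/- samples (log2 fold change -5.41, SE 0.84, adjusted p = 0.0621 by the quasi-likelihood test of edgeR, adjusted after Benjamini and Hochberg). That p was between 6.42e-11 and 0.389 over the alternative settings, and the fold change was -8.97 without Il1a-/- replicate 1, since the other knockout sample had no UMI.

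Cells were assigned by marker gates, which ask for at least 2 distinct marker genes of a class and at most 50% as many of any other class. The phagocyte gate, for monocytes and macrophages, held 388 and 642 cells for WT and 150 and 364 for Il1a-/- hosts. The T/NK gate (T cells and natural killer cells) held 2245 to 2320 cells per sample, the fibroblast gate 208 to 342 and the plasmacytoid dendritic gate 76 to 169. Of the phagocyte-gated cells, 97% fell into clusters named for the same class by the same markers, as did 98.9% for T/NK, 99.7% for fibroblasts and 100% for plasmacytoid dendritic cells. No cluster was named for conventional dendritic or endothelial cells, so these gates rest on the markers of single cells alone. Tumour epithelial-gated cells were 360 and 220 with WT hosts but 26 and 3 with Il1a-/- hosts. Levels are given where a gate had at least 20 cells in a sample, as CPM, counts per 1000000: the UMIs of the gene divided by all mouse UMIs of the gate in that sample and multiplied by 1000000.

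The source of Thbs1 differed between the samples. In the WT tumours 62% and 47.2% of all Thbs1 UMIs in called cells lay in tumour epithelial-gated cells, 25.2% and 28.4% in fibroblasts and 6.5% and 6.4% in phagocytes. In the Il1a-/- tumours the phagocytes held 45.4% and 52.2%, the fibroblasts 23.1% and 40.3%, and the tumour cells 19% and 0.4%. These shares follow both the level per cell and the number of cells called, and there were few tumour cells in the Il1a-/- samples. Cd47 was spread most widely, with 49.1% to 63.6% of its UMIs in T/NK cells, which were the most numerous. Sirpa lay mainly in phagocytes, with 59.4% to 83% of its UMIs there. Cd36 lay mainly in phagocytes in 3 samples (64.3% to 75.9%), whereas in WT replicate 1 the plasmacytoid dendritic cells held 35.9% and the phagocytes 26.1%.

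**Figure D1:**
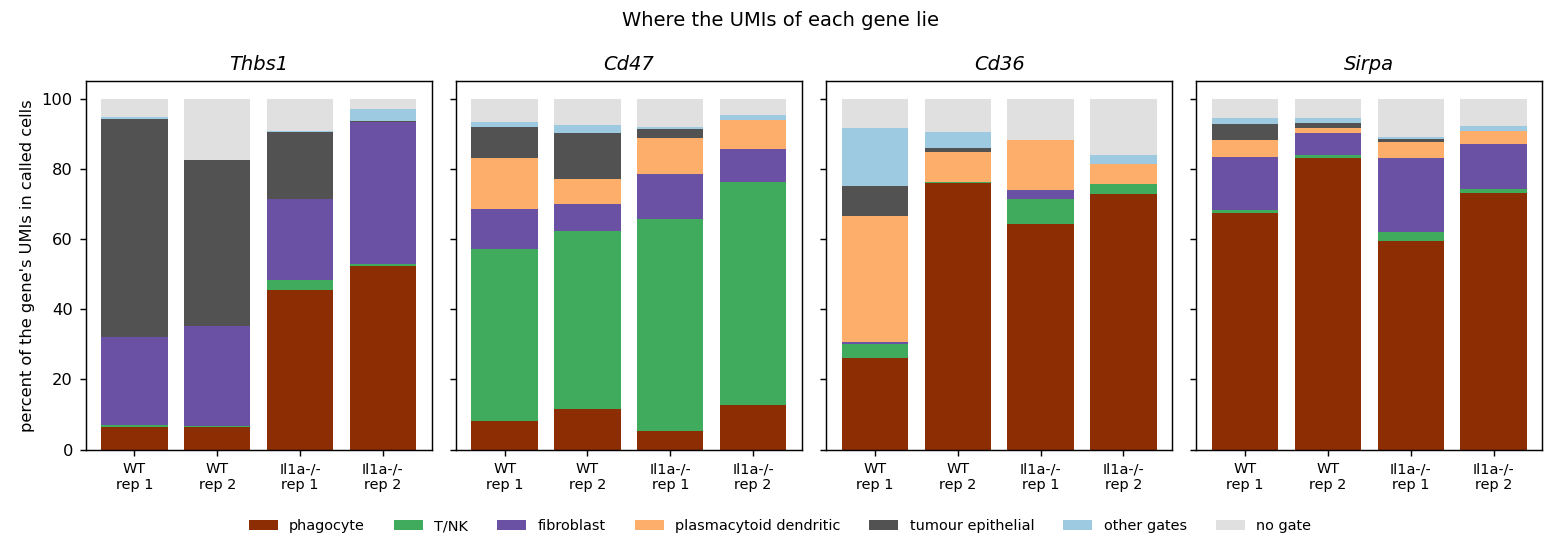
Percent of each gene's UMIs in called cells (y axis) by the gate of the cell (colours) in each of the 4 tumours (x axis). For Thbs1 the phagocyte part is 6.5% and 6.4% with WT hosts but 45.4% and 52.2% with Il1a-/- hosts.

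Among gates with at least 20 cells in a sample, Thbs1 was found mainly in 3 kinds of cell. It was far lower on average in the others. Over the samples with enough cells, its mean was 395 ± 97.3 CPM in tumour epithelial cells (SD, n = 3), 347 ± 328 CPM in phagocytes (SD, n = 4) and 285 ± 133 CPM in fibroblasts (SD, n = 4). The phagocyte mean pools hosts that differ widely, and the order of the gates depended on the host. In the WT samples phagocytes were lowest (78.3 and 49 CPM), below fibroblasts (290 and 301) and tumour cells (318 and 362), with no overlap. In the Il1a-/- samples phagocytes were highest (618 and 644 CPM), above fibroblasts (112 and 435) and the 1 tumour cell value (504). All lay above T/NK cells (0.771 to 3.39 CPM) and plasmacytoid dendritic cells, which held 1 Thbs1 UMI in 418 cells. Neutrophils had 0 and 51.3 CPM in the WT samples from 4 UMIs in all, which overlapped the lowest phagocyte value. The conventional dendritic gate held no Thbs1 UMI in the 61 cells of the WT samples, and in Il1a-/- replicate 2 its 44 UMIs came from 1 of 16 cells.

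In tumour epithelial-gated cells Thbs1 stood at 318 and 362 CPM in WT replicates 1 and 2 and at 504 CPM in the 26 cells of Il1a-/- replicate 1. The 3 cells of Il1a-/- replicate 2 held 8 UMIs and give no level. The single knockout value lies above both WT values, and the difference was not tested.

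Cd47 was found in every gate with at least 20 cells in a sample. It was highest in plasmacytoid dendritic cells, the interferon-producing dendritic lineage, at 1388, 1496, 1298 and 1559 CPM (WT replicates 1 and 2, then Il1a-/- replicates 1 and 2), with a UMI in 92.3% to 100% of these cells. No other gate with at least 20 cells reached that range. The remaining gates had mean levels from 350 to 600 CPM, and no neighbours among them were separated: neutrophils at 600 ± 296 CPM (SD, n = 2), conventional dendritic cells at 544 ± 188 (SD, n = 2), T/NK cells at 528 ± 31.2 (SD, n = 4), phagocytes at 454 ± 113 (SD, n = 4), fibroblasts at 407 ± 55.9 (SD, n = 4) and tumour cells at 350 ± 165 (SD, n = 3).

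Sirpa was highest in phagocytes (510 ± 53.5 CPM, SD, n = 4) and neutrophils (464 and 334 CPM in the WT samples), whose ranges overlapped. Conventional dendritic cells were far lower in the WT samples, at 17.1 and 25.5 CPM, from 7 UMIs in all. In Il1a-/- replicate 2 the 16 cells of this gate, too few for a level, held 11 Sirpa UMIs. The 4 cells of Il1a-/- replicate 1 held 0. Fibroblasts and plasmacytoid dendritic cells followed at 74.6 ± 17.4 and 74.1 ± 24.3 CPM (SD, n = 4 each), and T/NK cells were lowest at 1.87 ± 0.283 CPM (SD, n = 4). Sirpa is related in sequence to the Sirpb1 genes, so reads shared among them could have been counted for either or for none.

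Cd36 was found in few gates. Only gates with at least 20 cells in a sample were ranked. Among these Cd36 was highest in phagocytes (65.5 ± 31.3 CPM, SD, n = 4). Conventional dendritic cells (51.3 and 71.3 CPM in the WT samples) and plasmacytoid dendritic cells (41.7 ± 17.4 CPM, SD, n = 4) followed, and the ranges of these gates overlapped. This ranking of Cd36 depended on the host. In the WT samples the means were 44.7 ± 34.9 CPM in phagocytes, 61.3 ± 14.1 in conventional and 56.5 ± 5.1 in plasmacytoid dendritic cells (SD, n = 2 each). In the Il1a-/- samples they were 86.2 ± 3.0 CPM in phagocytes and 26.9 ± 1.3 in plasmacytoid dendritic cells (SD, n = 2 each). T/NK cells held 15 Cd36 UMIs in 9186 cells, fibroblasts 2 in 1083 and neutrophils none. Endothelial-gated cells, in which CD36 is the receptor of thrombospondin 1, numbered 15, 7, 0 and 9 in the order given above. The 15 of WT replicate 1 held 17 Cd36 UMIs, 5 of these cells having at least 1.

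**Figure D2:**
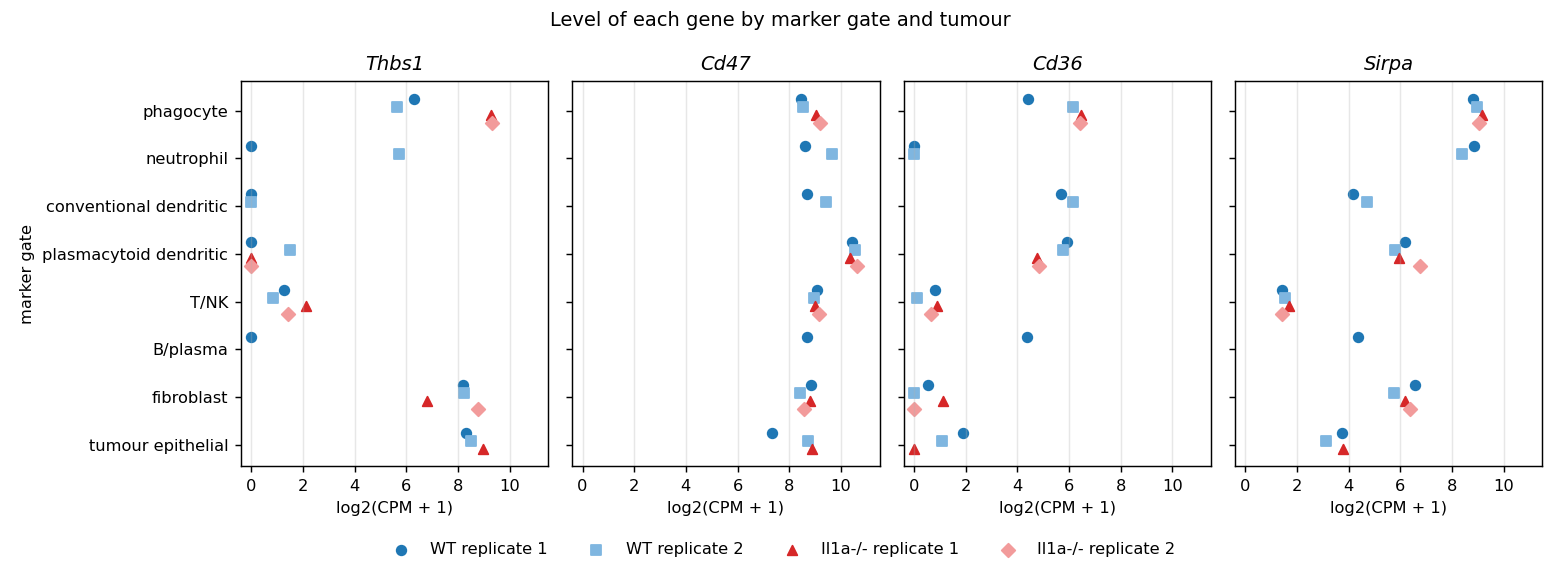
Level of each gene, log2(CPM + 1) on the x axis, by marker gate (y axis) and tumour (colours and symbols), for samples with at least 20 cells of the gate. Phagocyte Thbs1 is the one entry in which the Il1a-/- symbols lie far to the right of the WT symbols; Cd47 is highest in plasmacytoid dendritic cells in all 4 tumours.

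In phagocytes Thbs1 stood at 78.3 and 49 CPM in WT replicates 1 and 2 and at 618 and 644 CPM in Il1a-/- replicates 1 and 2, from 156, 180, 189 and 1049 UMIs. Both knockout samples lay far above both WT samples. The fitted difference was 10.1-fold (95% interval 6.55 to 15.7), a log2 fold change of 3.34 (SE 0.27), with mean levels after TMM scaling, which adjusts library sizes for composition, of 63.6 ± 19.3 CPM for WT (SD, n = 2) and 640 ± 64.2 CPM for Il1a-/- hosts (SD, n = 2). The interval takes no account of Thbs1 having been chosen on this contrast and is not a test. Between samples of the same number the ratio was 7.9 for number 1 and 13.1 for number 2. Leaving out 1 sample at a time gave log2 fold changes from 3.06 to 3.68.

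The receptors of phagocytes differed far less. Cd47 stood at 351, 366, 517 and 582 CPM in the same order (log2 fold change 0.64, SE 0.21). Sirpa stood at 444, 494, 569 and 532 CPM (0.24, SE 0.20). Both knockout samples lay above both WT samples for either gene, and for Sirpa the gap between the groups was smaller than that between the WT samples. Cd36 stood at 20.1, 69.4, 88.3 and 84.1 CPM (0.91, SE 0.50), and WT replicate 1 alone was low: the log2 fold change was 2.14 without WT replicate 2 and 0.31 without WT replicate 1. All 4 genes were thus higher without overlap in the knockout samples, as were 22.4% of the 8887 genes tested in phagocytes. Since Thbs1 was chosen on this contrast, nothing is read from that count. Of all these genes, 0.101% passed an adjusted p of 0.05 and 13.4% had an unadjusted p under 0.05.

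A larger share of phagocytes carried Thbs1 in the Il1a-/- samples. To compare samples of unequal depth, each cell was thinned to 1000 UMIs, leaving out 34, 84, 31 and 31 shallower phagocytes. A Thbs1 UMI was then found in 6.78% (exact binomial 95% interval 4.39% to 9.92%) and 3.23% (1.92% to 5.05%) of phagocytes in the WT samples. It was found in 26.1% (18.4% to 34.9%) and 32.4% (27.4% to 37.8%) in the Il1a-/- samples. Without thinning the shares were 10.8%, 5.92%, 28% and 47.8%. These intervals cover counting error only. In T/NK cells, which should lack the gene, the thinned share was at most 0.276% in any sample, at median depths of 1279 to 4100 UMIs against 1721.5 to 4704.5 in phagocytes. The UMIs per Thbs1-positive phagocyte, without thinning, were 3.71 and 4.74 for WT and 4.5 and 6.03 for Il1a-/- hosts, and this measure overlapped between the groups. Per UMI of these cells, Thbs1 stood at 831 and 712 CPM for WT and at 2431 and 1204 CPM for Il1a-/- hosts, which did not overlap, at median depths of 3634, 5277.5, 1695 and 4163.5 UMIs. Both measures depend on depth, since a shallow cell must hold at least 1 UMI to be counted.

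**Figure D3:**
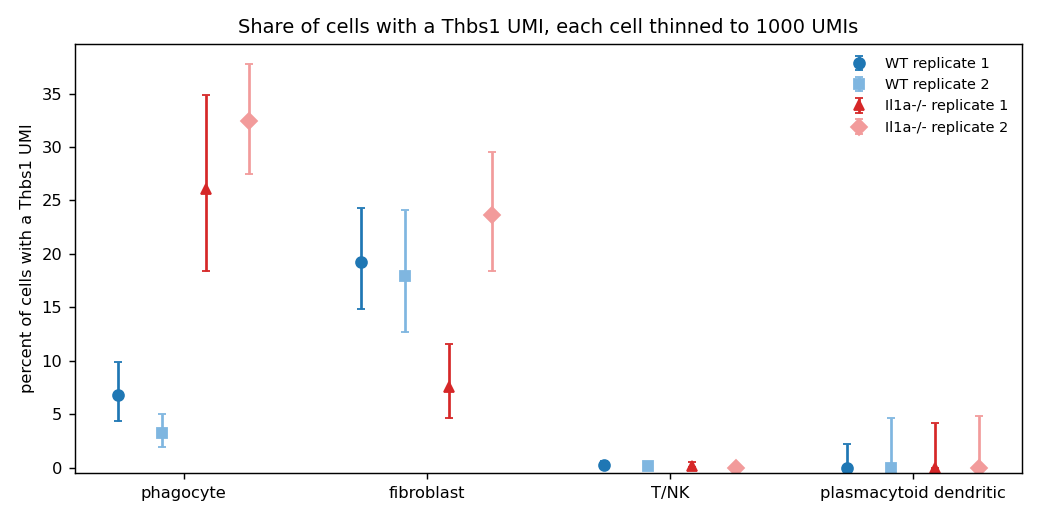
Percent of cells with at least 1 Thbs1 UMI (y axis) after thinning every cell to 1000 UMIs, by gate (x axis) and tumour (colours and symbols), with exact binomial 95% intervals. The Il1a-/- phagocytes sit at 26.1% and 32.4% against 6.78% and 3.23% in WT, while the fibroblasts of Il1a-/- replicate 1 are low at 7.54%.

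Thbs1 was unevenly spread among phagocytes. Cells were split by which set of markers had more UMIs, monocyte (such as Ly6c2 and Ccr2) or macrophage (such as C1qa and Mrc1). This split cuts a range and does not define types, and 23, 37, 31 and 44 cells lay at or within 1 UMI of the boundary. In cells with more monocyte UMIs, Thbs1 stood at 260, 101, 956 and 780 CPM. In cells with more macrophage UMIs it stood at 13.3, 28, 254 and 455 CPM. Thbs1 was higher on the monocyte side in every sample, and on both sides the Il1a-/- samples lay above the WT samples without overlap, by 4.81-fold and 17.2-fold in the ratio of means. The monocyte side held 112, 187, 79 and 192 cells, and the macrophage side 268, 441, 61 and 155.

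Arg1, which encodes the arginine-degrading enzyme arginase 1 of suppressive myeloid cells, gave a second split. Thbs1 stood at 10.2, 12.9, 410 and 526 CPM in phagocytes with an Arg1 UMI and at 107, 106, 692 and 804 CPM in those without. In every sample the cells without Arg1 had more Thbs1. The difference between hosts was present in both sets. Split the other way, by a Thbs1 UMI, Arg1 was not lower in Thbs1-positive phagocytes: it stood at 218, 1605, 1132 and 3151 CPM against 217, 1178, 829 and 2754 in the cells without Thbs1. Whether a cell shows a UMI of either gene also depends on its depth.

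The receptors were divided in their own way by the monocyte and macrophage markers. Cd47 was higher on the monocyte side in every sample, at 480, 493, 653 and 653 CPM against 303, 307, 378 and 487 on the macrophage side. Sirpa was higher on the macrophage side in every sample, at 474, 523, 612 and 614 CPM against 372, 424, 525 and 466. Cd36 had no common direction: WT replicate 1 had 49.3 CPM on the monocyte side and 7.72 on the macrophage side, while WT replicate 2 had 65.6 and 72.

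**Figure D4:**
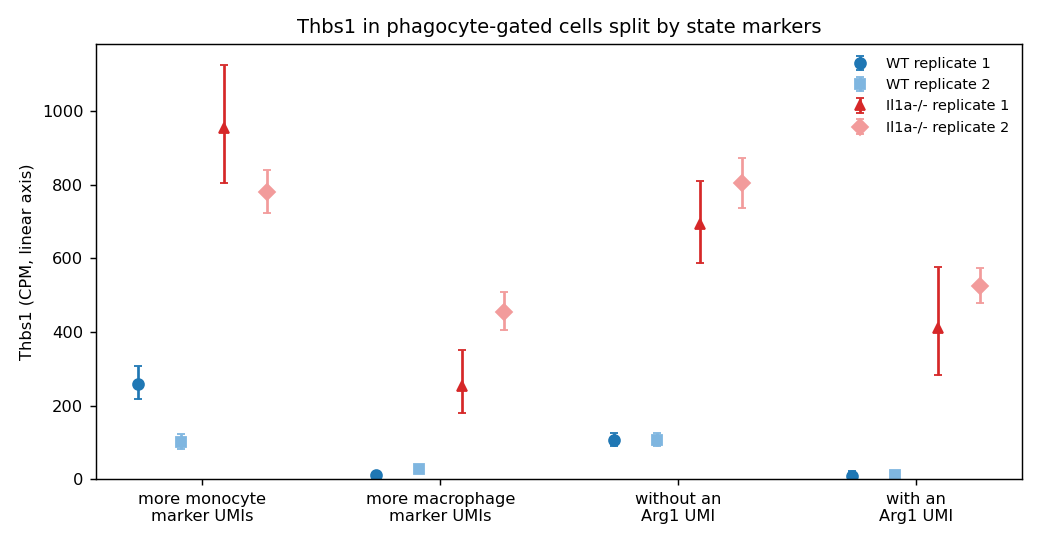
Thbs1 level in CPM (y axis, linear) in phagocytes split by monocyte or macrophage marker UMIs and by an Arg1 UMI (x axis), for each tumour (colours and symbols), with exact Poisson 95% intervals that cover counting error only. Within each of the 4 sets both Il1a-/- values lie above both WT values.

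Phagocytes with a Thbs1 UMI had fewer transcripts of C1qa, a complement gene of macrophages, than those without: 416 against 3673 and 1024 against 2634 CPM for WT replicates 1 and 2, and 527 against 1500 and 737 against 775 CPM for Il1a-/- replicates 1 and 2. The last pair is close. Ly6c2, a marker of inflammatory monocytes, went the other way, at 501 against 68.7, 419 against 96.5, 977 against 325 and 307 against 102 CPM. Cd47 was also higher in Thbs1-positive phagocytes in each sample, at 453, 506, 643 and 621 CPM against 341, 355, 474 and 537. Sirpa was higher in Thbs1-positive cells in WT replicate 1 and Il1a-/- replicate 1 and lower in the other samples.

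Other cell types and free RNA were measured in the same gate. Fibroblast markers summed to 33.1 and 50.4 CPM among WT and to 13.1 and 24.5 among Il1a-/- phagocytes, with 7, 7, 2 and 5 of 7 genes having a UMI and Col1a1, Dcn and Pdgfra among those at 0 in Il1a-/- replicate 1. Tumour epithelial markers summed to 21.1, 18.2, 9.81 and 0 CPM, and all 8 were at 0 in Il1a-/- replicate 2. Both sums were lower in the Il1a-/- samples. Platelet markers, of a further Thbs1 source, summed to 0, 1.09, 0 and 1.84 CPM. Endothelial markers summed to 62.2, 144, 124 and 209 CPM over 7 genes, with Emcn at 0 in every sample; they overlapped between groups and their part was not tested. Free RNA, read from barcodes with at most 100 UMIs, held Thbs1 at 79.8, 64.8, 172 and 237 CPM. Its share of the UMIs in phagocytes was put at up to 0.917%. This is an estimate and not a strict bound, since it takes the lowest of the upper limits over many genes. Subtracting free RNA at the estimated shares left a mean Thbs1 level of 63.6 CPM for WT and 633 for knockout hosts.

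The remaining gates were not used to choose the genes and were tested in edgeR, the p-values being adjusted over all genes of the gate. None of the 9 tests of these 4 genes in T/NK, fibroblast and plasmacytoid dendritic cells passed an adjusted p of 0.05. The background was 5.42% of 11068 genes called in T/NK cells, 0.0% of 9831 in fibroblasts and 1.48% of 5604 in plasmacytoid dendritic cells. Cd36 in T/NK cells and fibroblasts and Thbs1 in plasmacytoid dendritic cells were too low for the filter on counts and were not tested. With so few samples, a result that does not pass does not show that the groups are alike, so intervals are given.

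Thbs1 in T/NK cells had 11 and 9 UMIs for WT and 12 and 14 for Il1a-/- hosts, or 1.41, 0.771, 3.39 and 1.66 CPM. The Il1a-/- values lay above the WT values without overlap, as did 27.8% of the genes tested. The log2 fold change was 1.16 (SE 0.56, 95% interval -0.11 to 2.44, adjusted p = 0.237 in edgeR, 0.126 to 0.716 over the alternatives). Less the free RNA profile, the mean was 0.487 CPM for WT and 1.76 for knockout hosts. Cd47 in T/NK cells stood at 542, 502, 503 and 566 CPM and overlapped (log2 fold change 0.073, 95% interval -0.31 to 0.46, adjusted p = 0.822 in edgeR). Sirpa, with 57 UMIs in all T/NK cells, also overlapped (0.11, 95% interval -0.90 to 1.12, adjusted p = 0.901 in edgeR).

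In fibroblasts, which are strong producers of thrombospondins, Thbs1 stood at 290, 301, 112 and 435 CPM. The knockout samples lay on either side of the WT samples, Il1a-/- replicate 1 being the lowest and Il1a-/- replicate 2 the highest. The log2 fold change was -0.08 (SE 0.63, 95% interval -1.64 to 1.48, adjusted p = 0.989 in edgeR). Leaving out Il1a-/- replicate 1 gave 0.61 and leaving out Il1a-/- replicate 2 gave -1.41, so its sign rests on these samples. The ratio between samples of the same number was 0.385 for number 1 and 1.44 for number 2. Cd47 stood at 460, 342, 447 and 379 CPM (0.043, 95% interval -0.69 to 0.78, adjusted p = 0.986 in edgeR). Sirpa stood at 93.3, 52.4, 70.9 and 81.6 CPM (0.085, 95% interval -0.76 to 0.93, adjusted p = 0.971 in edgeR). Both overlapped between the groups, and their signs turned when single samples were left out.

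In plasmacytoid dendritic cells Cd36 stood at 60.1 and 52.9 CPM for WT and at 26 and 27.8 CPM for Il1a-/- hosts, from 55, 29, 6 and 11 UMIs. Both knockout samples were lower without overlap, as were 23.1% of the genes tested. The log2 fold change was -1.05 (SE 0.37, 95% interval -1.85 to -0.25), with an adjusted p = 0.186 in edgeR (0.144 to 0.403 over the alternatives). Cd47, highest in these cells, had a log2 fold change of 0.013 (95% interval -0.41 to 0.44, adjusted p = 0.988 in edgeR). Sirpa stood at 72.1, 54.7, 60.6 and 109 CPM and overlapped (0.48, 95% interval -0.19 to 1.14, adjusted p = 0.517 in edgeR); without Il1a-/- replicate 2 its log2 fold change was -0.08.

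**Figure D5:**
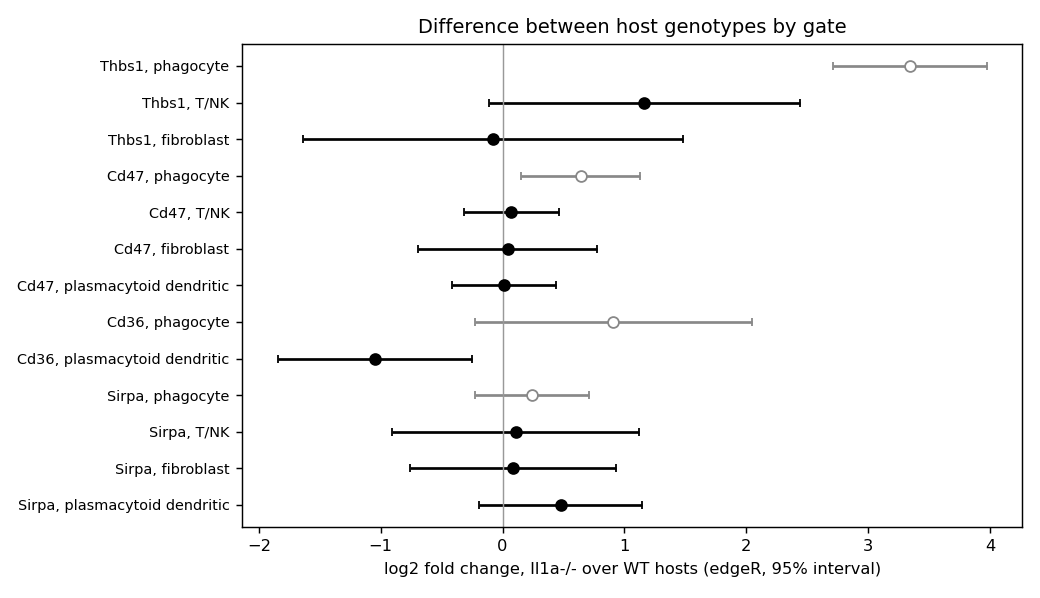
Log2 fold change of Il1a-/- over WT hosts (x axis) with its 95% interval from edgeR, for each gene and gate that passed the filter on counts (y axis). Open grey symbols are phagocytes, the contrast on which the genes were chosen; filled symbols are the tested gates, where no adjusted p passed 0.05.

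Of the other members of the thrombospondin family, Thbs2, Thbs3 and Thbs4 were found mainly in fibroblasts and Comp in tumour cells. Thbs2, another anti-angiogenic member, stood at 401, 959, 344 and 798 CPM in fibroblasts, and phagocytes held 4 of its UMIs, all in the WT samples. Thbs3 stood at 111, 117, 112 and 197 CPM in fibroblasts. Thbs4 ranged most, at 54.2, 498, 1.16 and 193 CPM, and was low in both samples numbered 1. None of these genes passed in fibroblasts, where 0 of 9831 genes did (509, or 5.18%, had an unadjusted p under 0.05, and DESeq2 called 10). Comp, the cartilage oligomeric matrix protein, was found in tumour epithelial cells of the WT samples (280 and 105 UMIs) and had no UMI in fibroblasts. In phagocytes these 4 genes together reached at most 4.08 CPM in any sample.

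Of 12 other thrombospondin receptors and partners, 10 were tested in phagocytes and none passed in either direction, while 5 had an unadjusted p under 0.05, beside 13.4% of all genes. Their median log2 fold change was 0.40 against -0.03 for all genes tested. Sdc4, a heparan sulphate proteoglycan of the cell surface, stood at 249, 437, 528 and 821 TMM-scaled CPM (log2 fold change 0.98, SE 0.32, adjusted p = 0.25 in edgeR). The knockout samples were higher without overlap but the difference did not pass; without WT replicate 2 it was 1.45 and passed. Itgb1, the β1 integrin chain, and Lrp1, an endocytic receptor that clears thrombospondin 1, were also higher without overlap, at log2 fold changes of 0.39 and 0.41 (adjusted p = 0.443 and 0.445 in edgeR). Calr, the chaperone calreticulin that is also an engulfment signal, overlapped at 536, 691, 582 and 490 TMM-scaled CPM. Among T/NK cells, where 3.22% of all genes rose and 2.2% fell, 1 of 10 rose and none fell: Itga4, the α4 integrin chain, from 154 ± 1.63 to 267 ± 50.1 TMM-scaled CPM (SD, n = 2 each; 0.79, SE 0.18, adjusted p = 0.0457 in edgeR). In plasmacytoid dendritic cells Itga4 was again the 1 gene of 6 that passed, with 1.16% of all genes rising and 0.321% falling there, from 100.4 ± 18.5 to 220 ± 19.1 TMM-scaled CPM (1.10, SE 0.23, adjusted p = 0.035 in edgeR). In fibroblasts none of 9 passed, beside 0.0% of all genes. Both Itga4 calls were close to the threshold: leaving out any of WT replicate 1, WT replicate 2 and Il1a-/- replicate 1 ended the one in T/NK cells (log2 fold changes 0.80, 0.78 and 0.60). Leaving out WT replicate 2 or either knockout sample ended the other (0.91, 1.02 and 1.19), as did DESeq2 (1.11) and asking for 3 distinct markers (0.99).

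Of 8 genes of SIRP and CD47 signalling, all were tested in phagocytes and none passed. None had an unadjusted p under 0.05, beside 13.4% of all genes. Their median was -0.15, against -0.03 for all genes. Fyb, an adaptor that binds the tail of SIRPα complexes together with Skap2, stood at 287, 316, 264 and 200 TMM-scaled CPM, lower without overlap in the knockout samples, as were 25.4% of all genes (-0.40, adjusted p = 0.469 in edgeR). Ptpn11, the phosphatase SHP-2 that SIRPα recruits, was lower without overlap as well (-0.23, adjusted p = 0.69 in edgeR), and Skap2 overlapped. T/NK cells, where 3.22% of all genes rose and 2.2% fell, had 1 call of 5. Ptpn6, the phosphatase SHP-1 recruited by inhibitory receptors, fell from 175 ± 11.4 to 73.7 ± 18.6 TMM-scaled CPM (SD, n = 2 each; -1.26, SE 0.20, adjusted p = 0.0158 in edgeR). Leaving out WT replicate 1 or WT replicate 2 gave -1.19 or -1.33, and neither passed. In fibroblasts (3 tested) and plasmacytoid dendritic cells (4 tested) none passed, beside 0.0% and 1.48% of all genes.

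Of 15 genes of scavenging and lipid uptake, the setting in which CD36 works, 13 were tested in phagocytes and none passed. An unadjusted p under 0.05 was found for 2 of the 13, beside 13.4% of all genes. Their median was 0.19, against -0.03 for all genes. Fabp5, a fatty acid carrier, and Lyn, a Src-family kinase that signals from CD36, overlapped between the groups, at log2 fold changes of -0.17 and 0.02, as did Msr1, a scavenger receptor of macrophages, at 0.19. Plin2, which coats lipid droplets, stood at 141, 180, 182 and 411 TMM-scaled CPM (0.93, adjusted p = 0.302 in edgeR), with Il1a-/- replicate 2 well above the rest. T/NK cells, where 3.22% of all genes rose and 2.2% fell, had 1 call of 13. Cd9, a tetraspanin partner of CD36, fell from 93 ± 18.1 to 52.5 ± 7.74 TMM-scaled CPM (SD, n = 2 each; -0.83, SE 0.19, adjusted p = 0.0446 in edgeR). It no longer passed without WT replicate 1 (-0.62), WT replicate 2 (-1.02) or Il1a-/- replicate 2 (-0.68). None passed of 9 in fibroblasts or of 4 in plasmacytoid dendritic cells, beside 0.0% and 1.48% of all genes.

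Of 7 genes of TGF-β activation and its targets, 4 were tested in phagocytes and none passed, beside 0.101% of all genes. An unadjusted p under 0.05 in edgeR was found for 1 of the 4, beside 13.4% of all genes. Their median was -0.09, against -0.03 for all genes. Tgfb1, the ligand that thrombospondin 1 activates, stood at 286, 286, 299 and 264 TMM-scaled CPM, and Tgfbi, a target of it, at 740, 1047, 1035 and 580. Both overlapped, as did Smad7, a feedback inhibitor of the pathway, at a log2 fold change of -0.40. None passed of 5 genes in T/NK cells, 6 in fibroblasts or 2 in plasmacytoid dendritic cells, beside 5.42%, 0.0% and 1.48% of all genes.

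Immediate early and stress genes, which tissue dissociation also induces, were followed because Thbs1 is itself rapidly induced. Their 11 genes summed to 5716 and 3801 CPM among WT and to 7530 and 7660 among Il1a-/- phagocytes. In fibroblasts they summed to 7915 and 5448 against 13460 and 13958 CPM. Their part in the Thbs1 difference was not tested. None of the 11 passed in phagocytes, where 8 had an unadjusted p under 0.05, beside 13.4% of all genes, and the median was 0.69, against -0.03 for all genes. Junb stood at 1686, 1255, 2110 and 2775 TMM-scaled CPM (0.73, adjusted p = 0.277 in edgeR), and Fos at 1089, 759, 1648 and 1334 (0.69, adjusted p = 0.301 in edgeR). Dusp1, a phosphatase that switches off MAP kinases, and Ier3 were higher without overlap, at 0.98 and 1.00 (adjusted p = 0.19 and 0.156 in edgeR). Dusp1 passed without WT replicate 1, at 1.30.

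T/NK cells had 3 of these 11 genes rising and 2 falling, beside 3.22% and 2.2% of all genes. Atf3 rose from 9.85 ± 1.77 to 22.4 ± 4.08 TMM-scaled CPM (1.19, adjusted p = 0.0255), Egr1 by 0.87 (adjusted p = 0.04) and Fosb by 1.25 (adjusted p = 0.0239), all transcription factors. Jun fell by 1.17 (adjusted p = 0.0254) and the heat shock gene Hspa1a fell from 62.7 ± 66.7 to 4.13 ± 1.35 TMM-scaled CPM (SD, n = 2 each; adjusted p = 0.0427), all in edgeR. Hspa1a was at 110 TMM-scaled CPM in WT replicate 1 and at 15.5 in WT replicate 2. Without WT replicate 1 its log2 fold change was -1.97 and did not pass, nor did Hspa1a (-3.92) and Egr1 (0.81) pass when doublets were kept. In plasmacytoid dendritic cells 2 of 9 fell, beside 0.321% of all genes, Jun at a log2 fold change of -2.63 (adjusted p = 0.00403 in edgeR) and Hspa1b at -5.65 (adjusted p = 0.0292 in edgeR; -5.38 and not passing in DESeq2). Hspa1a and Hspa1b are near-identical copies, so their separate levels are uncertain. Of all genes tested in T/NK cells, none passed without WT replicate 1, and 20 did without WT replicate 2, so the T/NK calls rest on both WT samples.

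Hypoxia genes were also followed beside phagocyte Thbs1. Their 10 genes summed to 884 and 1855 CPM among WT and 2656 and 3898 among Il1a-/- phagocytes, and 8 of the 9 tested were higher in the knockout samples without overlap, beside 22.4% of all genes. None passed; 8 had an unadjusted p under 0.05, beside 13.4% of all genes, and the median was 1.74, against -0.03 for all genes. Ldha, the lactate dehydrogenase of glycolysis, stood at 401, 670, 821 and 980 TMM-scaled CPM (0.75, adjusted p = 0.302 in edgeR), and Pgk1, another glycolytic enzyme, at 227, 595, 752 and 1280 (1.31, adjusted p = 0.262 in edgeR; 2.17 and passing without WT replicate 2). Hmox1, the heme oxygenase, stood at 91.6, 256, 318 and 259 TMM-scaled CPM, with WT replicate 1 alone far below the rest (0.71, adjusted p = 0.497 in edgeR; 1.64 and passing without WT replicate 2). The part of hypoxia in the Thbs1 difference was not tested. Among T/NK cells, where 3.22% of all genes rose and 2.2% fell, 1 of 9 hypoxia genes rose and none fell. It was Hilpda, a lipid droplet protein of hypoxic cells, from 107 ± 24.5 to 248 ± 40.4 TMM-scaled CPM (1.21, adjusted p = 0.0212 in edgeR). The limit given above for the T/NK calls, that they rest on both WT samples, holds here too. In plasmacytoid dendritic cells 1 of 5 rose, again Hilpda, beside 1.16% of all genes. It rose in plasmacytoid dendritic cells from 6.94 ± 3.33 to 42.8 ± 21.7 (2.80, adjusted p = 0.0264 in edgeR), a call lost without Il1a-/- replicate 2, at 2.03. No hypoxia gene of 10 passed in fibroblasts, beside 0.0% of all genes.

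Since Thbs1 and Sirpa share a chromosome with the deleted gene, their neighbours were counted. Of the genes tested on chromosome 2, 52 of 852 passed in T/NK cells (6.1%), against 548 of 10205 on the other chromosomes (5.37%). In plasmacytoid dendritic cells 14 of 410 passed (3.41%), against 69 of 5191 (1.33%), and these shares were not compared by a test. Of the neighbours within 1 Mb of Thbs1, itself left out, none passed in phagocytes (0 of 14), T/NK cells (0 of 16) or fibroblasts (0 of 12). The shares of all genes called there were 0.101%, 5.42% and 0.0%. At these shares few or no calls would be found among so few genes, so the counts do not show that the neighbours were unaffected. In plasmacytoid dendritic cells 1 of 7 passed, beside 1.48% of all genes. It was Knl1, a kinetochore gene 0.92 Mb away, with 0 UMIs in both WT samples and 13 and 10 in the Il1a-/- samples (adjusted p = 0.00555 in edgeR). Within 1 Mb of Il1a, where Sirpa lies, 1 of 19 genes passed in T/NK cells, beside 5.42% of all genes. It was Polr1b, a subunit of RNA polymerase I, which fell by 1.08 (adjusted p = 0.0354 in edgeR). None of 15, 15 and 5 passed in phagocytes, fibroblasts and plasmacytoid dendritic cells, beside 0.101%, 0.0% and 1.48% of all genes. The counts near Il1a include Sirpa itself, whose phagocyte value is a description only. Polr1b no longer passed without either WT sample or Il1a-/- replicate 2, at -1.06, -1.09 and -1.01, nor in DESeq2, at -1.07.

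Finally, the genes whose level followed each gene most closely were found over 24 points, the combinations of sample and gate with at least 20 cells, among 6222 genes, by Pearson's r of log2(CPM + 10). The points of a sample share a library and its depth, and cell types account for most of the differences, so r is a description. Thbs1 was followed by Cxcl1 (0.90), a neutrophil-attracting chemokine, and by Sash1 (0.90), Ctnnd1 (0.90), Nupr1 (0.90) and Dock1 (0.88). Cd47 was followed by Paqr5 (0.87), Lrp8 (0.86), Ccr9 (0.86), Tex2 (0.86) and Adam11 (0.85), Ccr9 being one of the markers of the plasmacytoid dendritic gate. Cd36 was followed by Rp2 (0.92), Plekho1 (0.91), Cbfa2t3 (0.90), Syngr2 (0.90) and Prcp (0.90), and Sirpa by Sgpl1 (0.91), Nfe2l2 (0.91), Prdx5 (0.90), Aldh3b1 (0.89) and Il6ra (0.89).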

How the data were processed

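RNA of 4 tumours was measured with 10x Genomics single-cell libraries (3' v3.1 chemistry, per the labels' protocols). The authors deposited raw UMI counts per gene and barcode, made with Cell Ranger 3.1.0 per the file headers, on a combined human and mouse reference; 64591 features were counted, of which the mouse ones were used. Barcodes with at least 500 UMIs, 250 genes and at most 20% mitochondrial UMIs were kept, and the Scrublet scores highest by rank (0.8% per 1000 cells) were removed as doublets. The members, gene lists and tests were chosen with earlier results of these data known. Counts were summed per gate and sample and, where every sample had at least 20 cells, fitted with edgeR 4.0.16 (R 4.3.3; filterByExpr, TMM scaling, quasi-likelihood test, Benjamini-Hochberg adjustment at 0.05); the conventional dendritic gate fell short, with 4 and 16 cells in the knockout samples, so its planned test was not run. With 2 samples a group, and no statement that they are separate animals, p-values measure only the spread between these samples. The test was also run on simulated counts with known fold changes. These had the same spread for every gene, so that run does not show how the test behaves at the spread of these samples.

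Named genes were the 4 members, Il1a, each list gene that passed, otherwise at most the 4 of a list highest in phagocytes, the 5 genes most like each member among those with a mean of at least 20 CPM, and called neighbours within 1 Mb. One gene that this rule would name is not reported here. Positions are GENCODE vM21. Intervals for CPM and shares are exact and cover counting error only. Alternatives were DESeq2 1.42.0, its size factors, no count filter, a replicate block, stricter cells or gates, clusters in place of gates (scanpy 1.11.5), no doublet removal, free RNA subtraction, thinning to 500 UMIs and leaving out each sample.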

Additional observations from a re-analysis of the deposited data

Results flagged for a closer look

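Cd36 pointed in opposite directions in 2 gates. In phagocytes both Il1a-/- samples lay above both WT samples (log2 fold change 0.91), while in plasmacytoid dendritic cells both lay below (-1.05). The difference between the gates was not tested. Without WT replicate 1 the phagocyte value was 0.31. It is a description without a test, and the value in plasmacytoid dendritic cells did not pass an adjusted p of 0.05.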

How the results depend on the processing

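The log2 fold change of Thbs1 in phagocytes kept its direction under every alternative run, and no member passed an adjusted p of 0.05 in a tested gate under any. Of the member values recomputed, 153 kept their direction and moved by less than the spread between samples or kept their side of the threshold, 4 moved further and 11 turned sign. Without the count filter Cd47 in plasmacytoid dendritic cells was -0.046 and Lyn in phagocytes -0.024.

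Leaving out 1 sample at a time gave log2 fold changes in phagocytes of 3.06 to 3.68 for Thbs1, 0.46 to 0.80 for Cd47, 0.31 to 2.14 for Cd36 and 0.15 to 0.35 for Sirpa. In T/NK cells it gave 0.73 to 1.69 for Thbs1, -0.037 to 0.19 for Cd47 and -0.038 to 0.35 for Sirpa. In fibroblasts it gave -1.41 to 0.61 for Thbs1, -0.13 to 0.26 for Cd47 and -0.25 to 0.55 for Sirpa. In plasmacytoid dendritic cells it gave -0.13 to 0.13 for Cd47, -1.17 to -0.93 for Cd36 and -0.077 to 0.76 for Sirpa. Among list genes in phagocytes the sign turned for Fabp5 (-0.70 to 0.20), Lyn (-0.21 to 0.29), Msr1 (-0.026 to 0.42), Skap2 (-0.23 to 0.15), Smad7 (-0.73 to 0.011), Tgfb1 (-0.097 to 0.057) and Tgfbi (-0.61 to 0.20). An arm left with 1 sample is assumed to vary like the other.

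The numbers of genes called were unstable. Leaving out 1 sample gave 2 to 244 genes in phagocytes (9 with all samples), 0 to 1085 in T/NK cells (600), 0 to 2 in fibroblasts (0) and 81 to 194 in plasmacytoid dendritic cells (83). List genes called numbered 0 to 16, 0 to 17, 0 to 0 and 3 to 8 in the same order. In phagocytes DESeq2's size factors gave 55 genes and 2 of the lists, the DESeq2 test 94 and 4, no count filter 484 and 21, at most 10% mitochondrial UMIs 44 and 1, and 3 distinct markers 69 and 4. No count filter gave 1680 and 21 in T/NK cells, 215 and 7 in fibroblasts and 218 and 9 in plasmacytoid dendritic cells. The DESeq2 test gave 10 and 1 in fibroblasts and 37 and 1 in plasmacytoid dendritic cells, where clusters gave 126 genes. The cause of these shifts was not tested.

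With the replicate number as a block, 69 genes were called in phagocytes, 1738 in T/NK cells, 7 in fibroblasts and 348 in plasmacytoid dendritic cells, including 9, 600, 0 and 83 of those called without it. List genes called with the block numbered 8, 20, 0 and 9. The block changed no member's call. Same-numbered samples deviated together with r = 0.0072 in phagocytes, 0.166 in T/NK cells, 0.0555 in plasmacytoid dendritic cells and 0.40 in fibroblasts. The labels do not say that a number marks a pair, so the numbers are not treated as pairs.

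Less free RNA, Thbs1 in T/NK cells was 0.487 CPM in WT hosts, and Sirpa 0.82 in WT and 1.51 in knockout hosts. Thinning to 500 UMIs gave a Thbs1 share of 3.35% in WT replicate 1 and 22% in Il1a-/- replicate 2. Depth limits the rare transcripts most: Thbs1 in T/NK cells and Cd36 in plasmacytoid dendritic cells rest on 6 to 55 UMIs a sample.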
